A study of Rattus norvegicus with 13 samples.

Results

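Whole tumours grown in rat liver from BDEsp cells were compared with a cancer cell line derived from such tumours, array by array and gene by gene. The comparison takes 7 of the 13 arrays of the series, which are the 4 labelled as tumours arising from BDEsp cells and the 3 labelled as the tumour-derived epithelial line grown alone, chosen by those labels and by no measured value. The tumours are intrahepatic cholangiocarcinomas of young adult male Fischer 344 rats and were snap-frozen on removal. The epithelial line is clone H10, also of Fischer 344 background, and was grown in a gel of rat tail type I collagen. It is 1 clone, so it holds no stroma, and the labels do not tie it to any of the 4 tumours profiled. A fibroblastic line from these tumours, clone E4, grown alone in the same gel, gave 4 further arrays that are used here only to set levels and the spread beside the comparison, and 1 co-culture array of each line was not used in the tests. The labels name no transgene and no drug for any of these groups.

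Cholangiocarcinoma arises from the epithelium lining the bile ducts and is known for a dense stroma, in which cancer-associated fibroblasts lay down collagen around the malignant glands. A piece of such a tumour therefore holds cancer cells together with fibroblasts, vessels, macrophages, lymphocytes and, at its edge, liver parenchyma, whereas a cloned line holds cancer cells only. The comparison does not separate a difference in cell makeup from a difference in the state of the cancer cells. In bulk samples such as these, fewer cells of a type and less RNA per cell cannot be told apart.

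The labels held against their markers. All 8 epithelial markers were high in both groups, with a mean log2 level of 12.40 to 12.92 over the tumours and 12.99 to 13.37 over the epithelial arrays, and 4 of the 8 were lower in the tumours. The 8 fibroblast markers had a mean level of 10.55 to 10.91 in the tumours and of 4.71 to 4.90 in the line, and the 6 macrophage markers one of 9.57 to 10.001 and of 4.64 to 4.76. For the 6 hepatocyte markers the tumours ran from 5.49 to 12.60 and the line from 4.62 to 4.83. The arrays also differed in spread and in a sign of RNA quality. The SD over all probe sets was 2.02 to 2.07 in the tumours and 2.19 to 2.25 in the line, and actin probe sets at the 3' end exceeded those at the 5' end by a log2 value of 0.606 to 0.752 in the tumours and 0.857 to 1.47 in the line, without overlap. The same measure for GAPDH went the other way, also without overlap, from -0.0843 to -0.0046 in the tumours and from -0.142 to -0.0956 in the line. The part of any of these in the results was not tested. Nothing in the labels says that the 3 epithelial arrays came from separate cultures. Each p-value therefore reflects no more than the spread among arrays, pooled over the 11 arrays fitted, with the 4 fibroblastic arrays included. Which group had the widest spread varied by gene. For the chemokine Cxcl13 the SD was 0.75 in the tumours, 0.125 in the epithelial line and 3.07 in the fibroblastic line. For the mucosal glycoprotein Dmbt1 it was 0.37, 2.78 and 0.38 in the same order. So few arrays allow only imprecise estimates.

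Of 14217 genes measured, 7407 were called different between tumours and epithelial line, which is 52.1% of all genes tested. Of all genes, 18.9% were called higher in the tumours (2685 genes) and 33.2% lower (4722 genes). The tumour and epithelial arrays did not overlap for 8290 genes (58.3%). The directions differed in size: among called genes, at least 4-fold changes numbered 784 upward and 161 downward, and at least 16-fold changes 263 upward and 4 downward. The many small decreases lay among well expressed genes. Of the genes called lower, 1816 and 1657 were in the upper pair of 4 equal groups by mean level over the 11 arrays fitted, where the median difference was -0.57 and -0.48, and 257 were in the lowest group, where it was 0.17. When arrays were centred on their medians, 3751 genes were called higher and 3431 lower, so which direction prevails depends on the scaling. Counts for a gene list are to be read against the background shares of 18.9% and 33.2%.

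**Figure D1:**
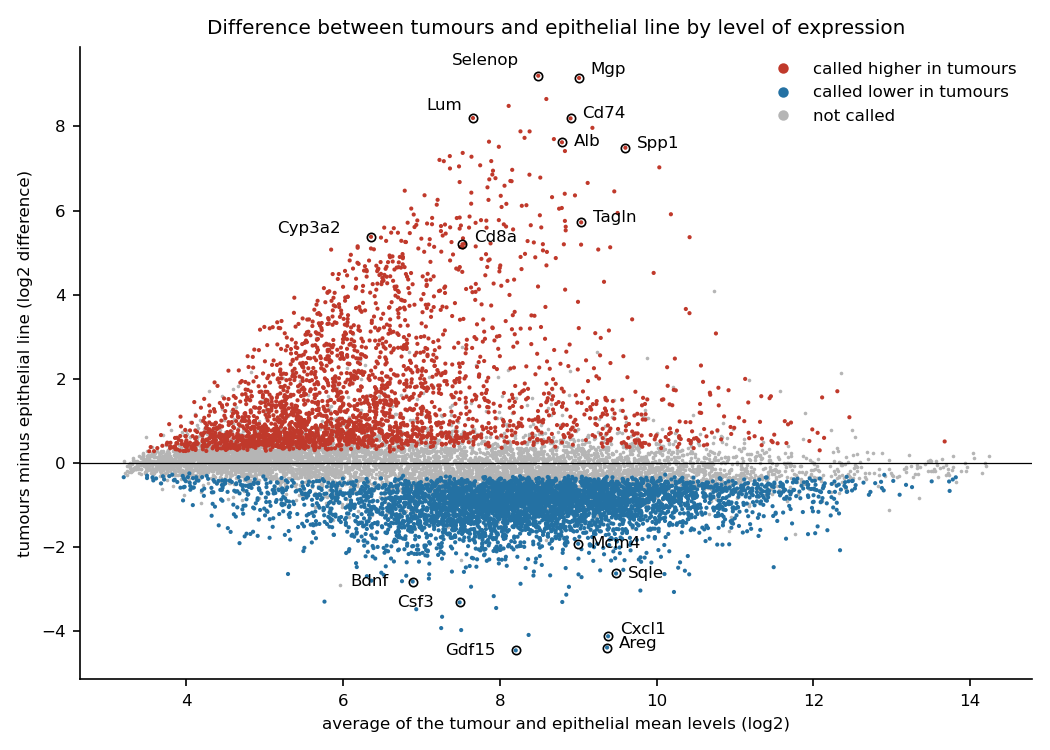
Each point is 1 of 14217 genes, with the average of its tumour and epithelial mean log2 levels on the x axis and the log2 difference of tumours minus epithelial line on the y axis, and coloured points are genes called at adjusted p under 0.05. Increases reach 9.20 (Selenop) while decreases end at -4.45 (Gdf15), and most genes called lower lie to the right, at high mean level.

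Most matrix genes were higher in the tumours. Of 37 genes of fibrillar collagens and interstitial matrix, 32 were higher in the tumours and 0 lower, with a median log2 difference of 4.36. Lum, which encodes lumican, a proteoglycan that spaces collagen fibrils, stood at 11.27, 12.12, 11.53 and 12.11 in tumours 1 to 4 and at 3.60, 3.57 and 3.51 in the epithelial arrays (log2 difference 8.20, SE 0.41, adjusted p = 2.01e-07). Dcn, which encodes the related proteoglycan decorin, stood at 11.94, 12.59, 11.76 and 12.53 and at 4.32, 4.15 and 4.50 (log2 difference 7.88, SE 0.60, adjusted p = 4.45e-06). In both genes the lowest tumour lay far above the highest epithelial array. Neither gene was high in the fibroblastic line, which stood at 4.28 ± 0.89 (SD, n = 4) for Lum and at 5.49 ± 1.38 (SD, n = 4) for Dcn. The tumours were above that line too, by 7.48 (adjusted p = 1.1e-07) and 6.71 (adjusted p = 2.95e-06). Other matrix genes behaved differently: Col1a2, a chain of type I collagen, was 8.65 above the epithelial line and differed by -1.36 from the fibroblastic line (adjusted p = 0.000136). Postn, a matrix protein of activated fibroblasts, was 8.49 above the epithelial line and -1.69 against the fibroblastic line (adjusted p = 1.2e-05). Over the whole list the median difference from the fibroblastic line was -1.36.

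Contractile genes of myofibroblasts were higher in 12 of 20, with a median of 2.10, and none was lower. Tagln, an actin-binding protein of smooth muscle, stood at 11.72, 11.60, 12.10 and 12.17 in the tumours and 6.33, 6.12 and 6.09 in the epithelial arrays (log2 difference 5.72, SE 0.49, adjusted p = 1.09e-05). The groups did not overlap, and the fibroblastic line was higher still at 13.36 ± 1.15 (SD, n = 4). Acta2, alpha smooth muscle actin itself, was higher by 3.23 (adjusted p = 0.00205). Among 15 transcription factors and adhesion genes of mesenchymal cells, 11 were higher and 3 lower. Of 14 genes of pericytes and quiescent stellate cells, 10 were higher, among them Rgs5, a marker of pericytes, at 9.81, 8.61, 8.37 and 9.40 in the tumours and 4.45, 4.75 and 4.46 in the line (log2 difference 4.49, SE 0.32, adjusted p = 2.77e-06). Rgs5 separated the groups. The fibroblastic line stood at 4.22 ± 0.30 (SD, n = 4), and the tumours were 4.83 above it (adjusted p = 3.64e-07). Without epithelial array 1, 6 of these 14 genes were higher.

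Basement membrane genes, unlike the interstitial matrix, split by the gene. Of 20 measured, 7 were higher and 6 lower. The linker Nid1 was higher by 7.0 (adjusted p = 7.59e-10) and the collagen IV chain Col4a1 by 4.60 (adjusted p = 3.66e-06). The laminin chains Lama5 (-2.10, adjusted p = 0.000477) and Lamb2 (-2.21, adjusted p = 7.21e-05) and the proteoglycan Agrn (-1.998, adjusted p = 5.54e-05) were lower in the tumours. Epithelia make these components themselves, but the fibroblastic line also stood above the tumours for each. In the same order, the tumour minus fibroblastic differences were -1.75 (adjusted p = 0.000553), -2.93 (adjusted p = 2.16e-06) and -0.99 (adjusted p = 0.00165). Among 27 proteases and their inhibitors, 17 were higher and 1 lower. Mmp12, the elastase of macrophages, stood at 12.04, 12.89, 12.87 and 12.35 in the tumours and 5.06, 4.78 and 4.68 in the line (log2 difference 7.70, SE 0.24, adjusted p = 5.65e-09). No array of either group overlapped the other for Mmp12. Mmp2, the gelatinase of fibroblasts, was higher by 4.66 (adjusted p = 1.63e-05), and the secreted pigment epithelium-derived factor Serpinf1 by 6.70 (adjusted p = 2.02e-08).

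Among 22 endothelial genes, 17 were higher and 1 lower, with a median of 1.58. Lyve1, the hyaluronan receptor of lymphatic vessels and liver sinusoids, stood at 7.98, 6.53, 6.66 and 9.26 in the tumours and 4.12, 3.96 and 4.30 in the line (log2 difference 3.48, SE 0.59, adjusted p = 0.000809). Kdr, the main receptor for vascular endothelial growth factor, stood at 7.53, 6.31, 6.44 and 7.90 and at 3.50, 4.07 and 4.41 (log2 difference 3.05, SE 0.38, adjusted p = 0.000122). Both genes separated the groups, and tumour 4 was the highest for each. Of 14 genes of nerve, fat and mesothelium 9 were higher, and of 9 genes of erythrocytes and platelets 1 was higher, the beta globin Hbb (3.71, adjusted p = 4.76e-05), and 2 were lower. Plvap, a protein of fenestrated vessels, was higher by 2.43 (adjusted p = 8.74e-06) and the endothelial mucin Emcn by 3.21 (adjusted p = 3.21e-06).

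**Figure D2:**
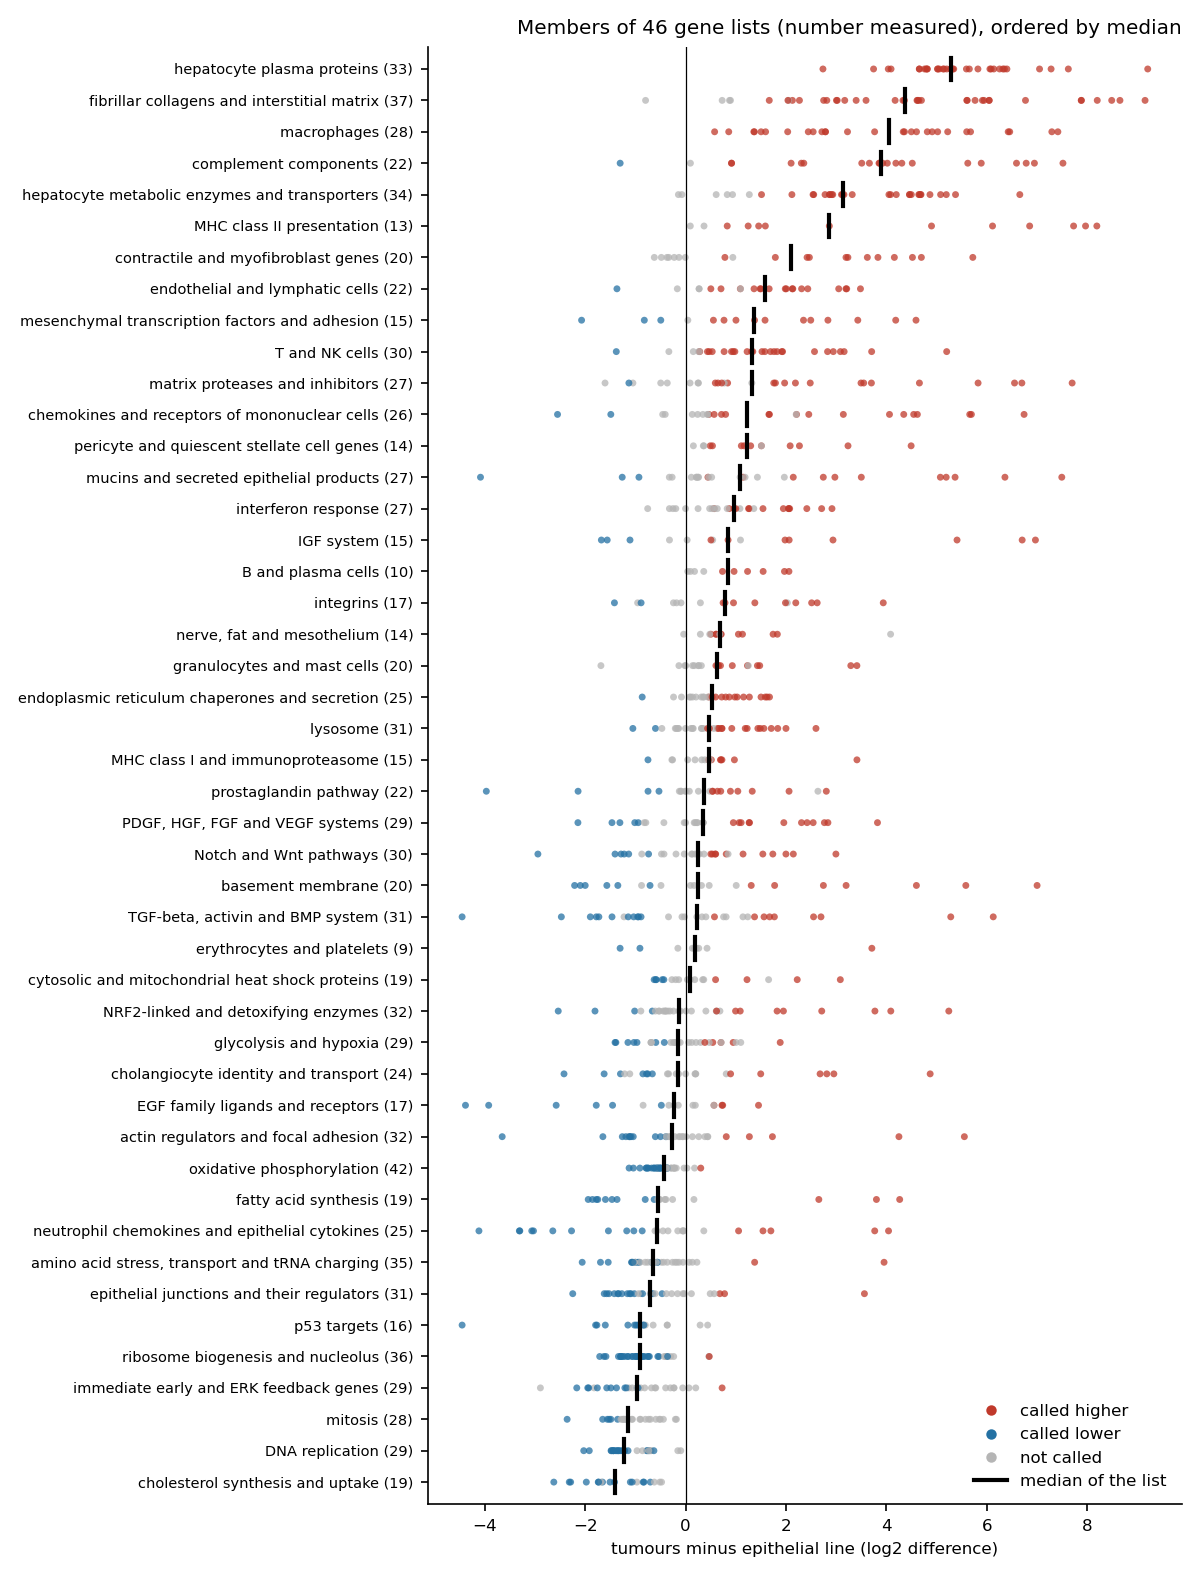
Log2 difference of tumours minus epithelial line for every measured member of 46 gene lists, 1 row a list. Coloured points were called at adjusted p under 0.05, grey points were not, and the black bar is the median of the list, from 5.28 for hepatocyte plasma proteins down to -1.41 for cholesterol synthesis and uptake.

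All 28 macrophage genes measured were higher in the tumours, with a median of 4.05. Cd68, a lysosomal protein of macrophages, stood at 10.21, 10.76, 10.31 and 10.17 in the tumours and 6.03, 6.12 and 5.86 in the epithelial arrays (log2 difference 4.36, SE 0.23, adjusted p = 2.36e-07). Csf1r, the receptor for the macrophage growth factor, stood at 8.82, 8.57, 8.20 and 9.14 and at 4.82, 3.92 and 4.31 (log2 difference 4.34, SE 0.26, adjusted p = 8.62e-07). For both, the 4 tumours lay close together and apart from the line. The mannose receptor Mrc1 (5.02, adjusted p = 1.23e-07), the haemoglobin scavenger receptor Cd163 (4.91, adjusted p = 2.11e-06) and Gpnmb, a glycoprotein of lipid-laden macrophages and osteoclasts (7.41, adjusted p = 4.2e-06), were higher too. Gpnmb was also high in the fibroblastic line, at 11.85 ± 1.26 (SD, n = 4), and the tumours differed from that line by 0.69 (adjusted p = 0.268), which was not called. With tumour 2 as the only tumour, 23 of the 28 were still called.

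Complement genes rose with a different pattern among the tumours. Of 22 measured, 20 were higher and 1 lower, with a median of 3.90. C1qa, a chain of the recognition molecule C1q that macrophages make, stood at 11.70, 12.03, 11.82 and 12.08 in the tumours and 4.95, 4.67 and 5.76 in the line (log2 difference 6.78, SE 0.23, adjusted p = 1.04e-08). C9, a pore-forming component that hepatocytes make, stood at 12.56, 7.90, 10.73 and 12.37 and at 4.89, 5.23 and 5.69 (log2 difference 5.62, SE 0.89, adjusted p = 0.000563). The C1qa values of the tumours lay within a narrow range, whereas C9 was lowest in tumour 2 and highest in tumours 1 and 4. C1s, a protease of the first component, stood at 12.03, 10.44, 10.60 and 12.48 (6.95, adjusted p = 0.000158). The median of the list was 1.01 with tumour 2 as the only tumour and 4.76 without it.

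Antigen presentation separated into class II and class I. Of 13 genes of class II presentation, 11 were higher and 0 lower, with a median of 2.86. Professional antigen presenting cells use class II, and the list also holds other genes of such cells. Among 15 genes of class I, which nearly all cells carry, and of the immunoproteasome, 7 were higher and 1 lower, with a median of 0.46. Cd74, the invariant chain of class II, stood at 12.94, 12.88, 12.95 and 13.21 in the tumours and 4.88, 4.39 and 5.15 in the line (log2 difference 8.19, SE 0.22, adjusted p = 1.78e-09). Its transcriptional regulator Ciita was higher by 1.25 (adjusted p = 0.000356). B2m, the light chain of class I, was already high in the line at 13.42, 13.56 and 13.28 and stood at 13.85, 14.01, 13.87 and 13.99 in the tumours (log2 difference 0.51, SE 0.12, adjusted p = 0.00469). No tumour overlapped the epithelial arrays for Cd74 or B2m. The transporter Tap1 and the immunoproteasome subunit Psmb9 differed by 0.04 (adjusted p = 0.888) and 0.32 (adjusted p = 0.654) and were not called.

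The promoters of class II genes carry a Y box, which is bound by the factor NF-Y. These sites are shown because most genes of the class II presentation list were higher and most of its promoters searched hold the motif. In RefSeq promoters of the GRCr8 build, the letters ATTGG were searched on either strand within 250 bases before the start. They were found in 7 of the 10 promoters of this list, or 70%, which include a gene outside class II itself. Of 11734 promoters of measured genes 35% held them, a short motif that many promoters hold. On its other strand this motif reads as the CCAAT box. The capitals mark the motif, each sequence is written 5′ to 3′ on the strand of the gene, and the position is that of the first capital from the start of the gene.
RT1-Da, chr20:4515354-4515382, + strand, -49: aacatttttctgATTGGctagaactcaag
RT1-Bb, chr20:4604163-4604191, - strand, -61: gctccagtgctgATTGGctcctcacttgg
RT1-Db1, chr20:4560226-4560254, - strand, -80: cctttgctgctgATTGGctccccggcact
RT1-Ba, chr20:4577002-4577030, + strand, -43: gggaattttctgATTGGtctgtcgggttt
RT1-Da, RT1-Bb and RT1-Db1, chains of class II molecules, were higher by 7.97, 7.73 and 6.85. RT1-Ba was higher by 1.46 (adjusted p = 0.00016). A match is a description of the letters and not evidence of binding.

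Of 30 T and NK cell genes, 25 were higher and 1 lower, with a median of 1.33. Cd8a, a co-receptor of cytotoxic T cells, stood at 9.71, 10.90, 10.01 and 9.87 in the tumours and 4.65, 4.996 and 5.12 in the line (log2 difference 5.20, SE 0.27, adjusted p = 2.35e-07). Prf1, the pore-forming perforin of killer cells, stood at 6.76, 7.45, 7.99 and 7.67 and at 4.46, 4.68 and 4.45 (log2 difference 2.94, SE 0.24, adjusted p = 7.09e-06). Both genes separated the groups. Eomes, a transcription factor of such cells, was the exception and was lower (-1.38, adjusted p = 0.000348). B and plasma cell genes were higher in 6 of 10, with the immunoglobulin joining chain Jchain at 2.06 (adjusted p = 0.00011). Granulocyte and mast cell genes were higher in 10 of 20, with a median of 0.62. S100a8, a calcium-binding protein of neutrophils, stood at 8.45, 8.14, 7.45 and 8.77 in the tumours and 4.80, 4.74 and 5.19 in the line (log2 difference 3.29, SE 0.27, adjusted p = 6.93e-06).

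Among 26 chemokines of mononuclear cells and their receptors, 16 were higher and 2 lower. Cxcl13, which attracts B cells, stood at 10.46, 11.74, 10.74 and 12.003 in the tumours and 4.44, 4.64 and 4.41 in the line (log2 difference 6.74, SE 1.29, adjusted p = 0.00162). Cxcl12, the stromal ligand of the receptor Cxcr4, stood at 9.25, 9.39, 8.57 and 9.73 and at 5.25, 4.48 and 4.94 (log2 difference 4.35, SE 0.41, adjusted p = 2.27e-05). Tumours and line did not overlap for either. Ccl2, which attracts monocytes, was higher by 5.69 (adjusted p = 3.54e-05), and Cxcl9, an interferon-gamma target, by 3.14 (adjusted p = 5.63e-05).

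Interferon response genes were higher in 14 of 27 with none lower, and without tumour 2 they were higher in 13 and lower in 2. Ifit3, an antiviral effector, stood at 6.64, 8.13, 5.53 and 6.46 in the tumours and 3.94, 3.85 and 4.15 in the line (log2 difference 2.71, SE 0.45, adjusted p = 0.000723). Irf7, the factor that amplifies type I interferon, stood at 8.27, 10.48, 7.72 and 8.61 and at 6.64, 6.61 and 6.84 (log2 difference 2.07, SE 0.54, adjusted p = 0.00918). Bst2, which tethers virions to the membrane, stood at 10.04, 9.81, 9.31 and 10.08 and at 7.40, 7.89 and 6.89 (log2 difference 2.42, SE 0.28, adjusted p = 8.6e-05). Tumour 2 was the highest tumour for Ifit3 and Irf7 and not for Bst2, and for none of the 3 did the groups overlap. Over the list the median was 1.84 with tumour 2 as the only tumour and 0.76 without it, and 14 genes were called with tumour 2 as the only tumour. The antiviral GTPase Mx1 was not called (1.36, adjusted p = 0.125).

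Interferon-stimulated response elements are printed because genes of this kind are known to be induced through them. The letters TTTC, any 2 bases and TTTC again were searched on both strands, so that GAAA, any 2 bases and GAAA count as well. They were found in 14 of the 22 promoters of this list that RefSeq gives (63.6%), against 314 of 11734 promoters of measured genes (2.68%). The capitals mark the motif.
Ifit3, chr1:241527270-241527303, + strand, -44: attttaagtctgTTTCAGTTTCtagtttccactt
Irf7, chr1:205800071-205800104, - strand, -69: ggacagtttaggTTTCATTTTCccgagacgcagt
Bst2, chr16:18255071-18255104, - strand, -125: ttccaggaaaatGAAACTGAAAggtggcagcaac
Oas1a, chr12:41330419-41330452, + strand, -35: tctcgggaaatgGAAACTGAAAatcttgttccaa
Igtp, chr10:42874932-42874965, + strand, -103: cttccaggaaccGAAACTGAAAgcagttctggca
The synthetase Oas1a (2.06, adjusted p = 0.00124) and the GTPase Igtp (2.05, adjusted p = 0.000451) were higher beside the 3 genes above. In Bst2 and Oas1a a further match overlaps the one shown by part of its length.

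**Figure D3:**
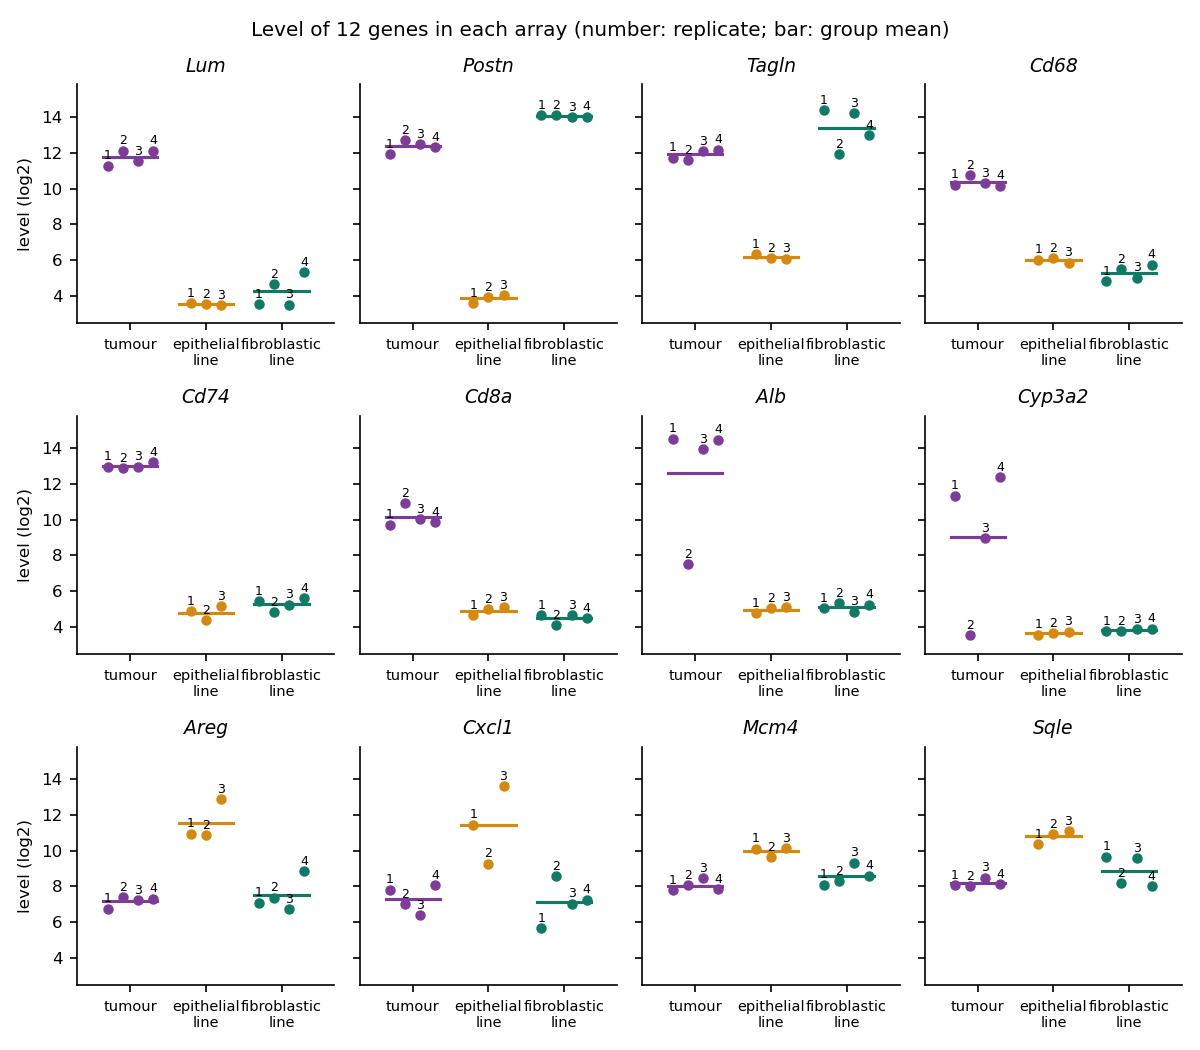
Log2 level of 12 genes in each array, 1 panel a gene, with the 4 tumours, the 3 epithelial arrays and the 4 fibroblastic arrays as points labelled by replicate number and the group mean as a bar. The first 6 panels, from Lum to Cd8a, are high in all 4 tumours and low in the epithelial line, Alb and Cyp3a2 are lowest in tumour 2, and Areg, Cxcl1, Mcm4 and Sqle have their highest mean in the epithelial line.

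Plasma proteins of hepatocytes had the highest median of the 46 lists, and liver genes had a wide spread among the tumours. All 33 plasma proteins of hepatocytes were called higher, with a median of 5.28, and so were 28 of 34 metabolic enzymes and transporters, with a median of 3.14. The count of 28 enzymes fell to 18 without tumour 1, tumour 4, epithelial array 2 or epithelial array 3, to 16 without epithelial array 1, and to 18 when the fibroblastic arrays were not fitted. Alb, which encodes serum albumin, stood at 14.51, 7.50, 13.94 and 14.46 in tumours 1 to 4 and 4.78, 5.05 and 5.12 in the line (log2 difference 7.62, SE 1.39, adjusted p = 0.00124). Cyp3a2, a drug-metabolizing cytochrome, stood at 11.33, 3.54, 8.96 and 12.35 and at 3.59, 3.67 and 3.75 (log2 difference 5.38, SE 1.60, adjusted p = 0.0168). Cps1, the first enzyme of the urea cycle, stood at 10.74, 4.66, 8.26 and 11.42 and at 4.10, 3.93 and 4.21 (log2 difference 4.69, SE 1.25, adjusted p = 0.00995). In each of these genes tumours 1 and 4 were highest, tumour 3 came next and tumour 2 lay nearest the line. Tumour 2 overlapped the epithelial arrays for Cyp3a2 and not for Alb or Cps1. The mean over the 33 plasma proteins was 12.67, 5.64, 10.87 and 12.85 in tumours 1 to 4 and 4.94, 4.97 and 5.12 in the epithelial arrays, and over the 34 enzymes it was 9.73, 5.26, 7.58 and 10.11 and 4.85, 4.86 and 5.01.

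With tumour 2 as the only tumour, 4 of the 33 plasma proteins and 2 of the 34 enzymes were called, with medians of 0.28 and 0.12. Of all genes called higher, 164 had an SD above 2 over the tumours, and tumour 2 was the lowest of the 4 for all 164. The 20 genes with the widest range over the tumours, such as the fibrinogen chains Fgg (range 9.73) and Fga (range 9.33) and the fatty acid carrier Fabp1 (range 8.89), likewise had their lowest value in tumour 2. For a pair of genes that liver expresses strongly, tumour 2 was also the lowest but lay closer to the others. Their ranges over the tumours were 0.82 (Arg1) and 1.62 (Selenop). Arg1, the arginase of the urea cycle and also of some macrophages, stood at 12.48, 11.995, 12.50 and 12.82 in the tumours and 6.02, 6.48 and 4.87 in the line (log2 difference 6.66, SE 0.71, adjusted p = 4.85e-05). Selenop, a plasma selenium carrier, stood at 13.57, 12.17, 12.84 and 13.79 and at 4.01, 3.80 and 3.86 (log2 difference 9.20, SE 0.42, adjusted p = 9.33e-08). Both were high in all 4 tumours, tumour 2 included. In the fibroblastic line Selenop stood at 9.45 ± 0.68 (SD, n = 4) and Arg1 at 7.27 ± 1.55 (SD, n = 4).

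**Figure D4:**
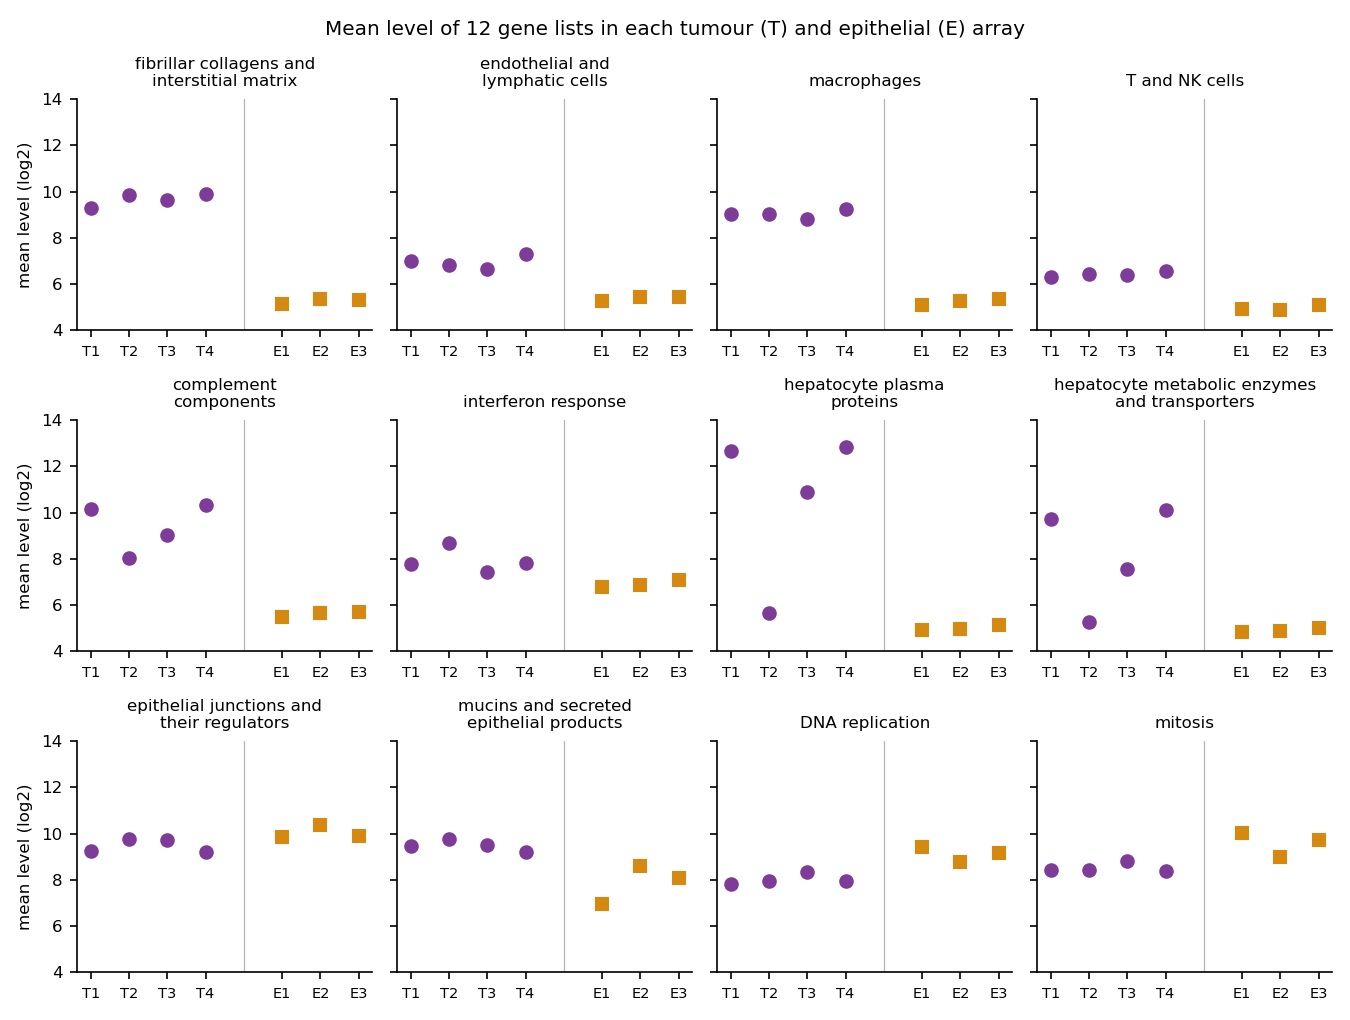
Mean log2 level over the members of 12 gene lists in each of the 7 arrays, with tumours 1 to 4 on the left of each panel and epithelial arrays 1 to 3 on the right. The hepatocyte lists fall to 5.64 and 5.26 in tumour 2 while the macrophage list stays between 8.82 and 9.24, and mitosis runs from 8.97 to 10.02 over the epithelial arrays.

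The epithelial programme itself was partly kept and partly different. Of 24 cholangiocyte genes, 6 were higher and 7 lower, shares close to the background. Krt20, a keratin of gastrointestinal epithelium, was higher (2.95, adjusted p = 0.00059), as was the water channel Aqp1 of bile ducts and vessels (2.81, adjusted p = 0.000199). The fibroblastic line lay above the tumours for Aqp1, at 9.90 ± 0.69 (SD, n = 4), with a tumour minus fibroblastic difference of -1.69 (adjusted p = 0.0018). Hnf4a, a transcription factor of hepatocytes and gut epithelia, stood at 11.37, 10.71, 11.39 and 11.12 in the tumours and 4.82, 8.35 and 5.66 in the line (log2 difference 4.87, adjusted p = 0.000173), high in all 4 tumours and highest of the line in array 2. Krt18, a keratin of simple epithelia (-0.75, adjusted p = 0.0101), and the export pump Abcc3 (-2.42, adjusted p = 0.00025) were lower. The keratin Krt8 (-0.34, adjusted p = 0.138) and the adhesion molecule Epcam (0.21, adjusted p = 0.488) were not called and overlapped between the groups, and Krt8 had an adjusted p = 0.046 without epithelial array 1. The keratin Krt7 was not called either (-1.11, adjusted p = 0.308), although its values of 12.12, 12.59, 12.76 and 12.17 in the tumours lay below the 13.67, 13.51 and 13.38 of the line. The fit pools the spread of the fibroblastic line, where Krt7 stood at 6.82 ± 2.12 (SD, n = 4), and on the tumour and epithelial arrays alone Krt7 had an adjusted p = 0.00232. Among 31 junction genes, 16 were lower and 3 higher, which became 10 and 3 with centred arrays. Without tumour 1, tumour 4 or epithelial array 2, 10 were lower. The mean over these 31 genes was 9.25, 9.75, 9.72 and 9.21 in tumours 1 to 4 and 9.85, 10.38 and 9.88 in the line, lowest in tumours 1 and 4, which were also the highest for liver genes. The part of liver tissue in the junction result was not tested. Tjp1, a scaffold of tight junctions, stood at 10.01, 10.64, 10.64 and 10.09 in the tumours and 12.10, 12.04 and 11.75 in the line (log2 difference -1.62, SE 0.23, adjusted p = 0.000253). Jup, the plakoglobin of adherens junctions and desmosomes, stood at 9.63, 9.75, 9.86 and 9.42 and at 10.93, 11.33 and 10.999 (log2 difference -1.42, SE 0.23, adjusted p = 0.000554). Neither gene overlapped between the groups. In the fibroblastic line Tjp1 stood at 11.66 ± 0.34 (SD, n = 4), with a tumour minus fibroblastic difference of -1.32 (adjusted p = 0.000327). Jup stood there at 9.85 ± 0.44 (SD, n = 4), and its difference of -0.18 (adjusted p = 0.463) was not called.

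Secreted epithelial products were more often higher than lower. Of 27 mucins and secreted products, 11 were higher and 3 lower, with a median of 1.09, which was 0.65 without tumour 2 and 0.351 without epithelial array 1. Spp1, which encodes osteopontin, stood at 13.25, 13.93, 13.56 and 12.64 in the tumours and 5.55, 6.04 and 5.98 in the line (log2 difference 7.49, SE 0.38, adjusted p = 2.01e-07). The fibroblastic line was also high for Spp1, at 12.90 ± 0.68 (SD, n = 4), and the tumours differed from it by 0.45 (adjusted p = 0.285). Reg3g, a lectin that kills bacteria, stood at 12.52, 13.54, 11.85 and 10.65 and at 4.34, 7.15 and 5.85 (log2 difference 6.36, SE 0.69, adjusted p = 5.38e-05). Tff3, the trefoil peptide that protects mucosa, stood at 8.88, 10.22, 8.39 and 7.67 and at 5.55, 6.23 and 6.36 (log2 difference 2.74, SE 0.48, adjusted p = 0.00102). All tumours were above all epithelial arrays for these 3 genes, tumour 2 was the highest for each, and epithelial array 1 was the lowest. The mucosal glycoprotein Dmbt1 was higher by 5.37 (adjusted p = 0.00105), with epithelial values of 5.60, 10.88 and 6.73. Mal, a lipid raft protein of apical transport, was lower (-4.08, adjusted p = 1.88e-06), and so was mesothelin, Msln (-1.26, adjusted p = 0.00618). The mucin Muc1 differed by 0.52 (adjusted p = 0.238) and was not called, but had an adjusted p = 0.0324 without epithelial array 2.

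The epithelial arrays were not alike among themselves. The median SD over all genes was 0.231 over the epithelial arrays and 0.176 over the tumours. Among the 20 genes with the widest range over the epithelial arrays, array 1 was the lowest in 18 and array 2 the highest in 15, and 4 of the 20 were called against the tumours. Car1, a carbonic anhydrase, stood at 4.36, 13.54 and 11.83 in epithelial arrays 1 to 3 and 9.79, 11.02, 8.11 and 8.43 in the tumours. Fabp4, a fatty acid binding protein, stood at 5.78, 13.47 and 6.82 and at 12.39, 13.52, 12.85 and 12.32. Agr2, a disulfide isomerase of mucus-secreting cells, stood at 6.83, 11.65 and 12.10 and at 12.14, 12.61, 12.08 and 11.81. Epithelial array 1 was the lowest of the line for these 3 genes, at or below 6.83, and array 2 fell in the range of the tumours or above it for Fabp4 and Car1. None of the 3 was called, with differences of -0.58 (adjusted p = 0.799), 4.08 (adjusted p = 0.0518) and 1.97 (adjusted p = 0.116). The adjusted p for Fabp4 was 0.0437 with centred arrays and 0.000835 without epithelial array 2. Without 1 epithelial array the other two were called as well, Car1 without array 1 (-3.35, adjusted p = 0.00653) and Agr2 without array 3 (2.92, adjusted p = 0.0333).

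**Figure D5:**
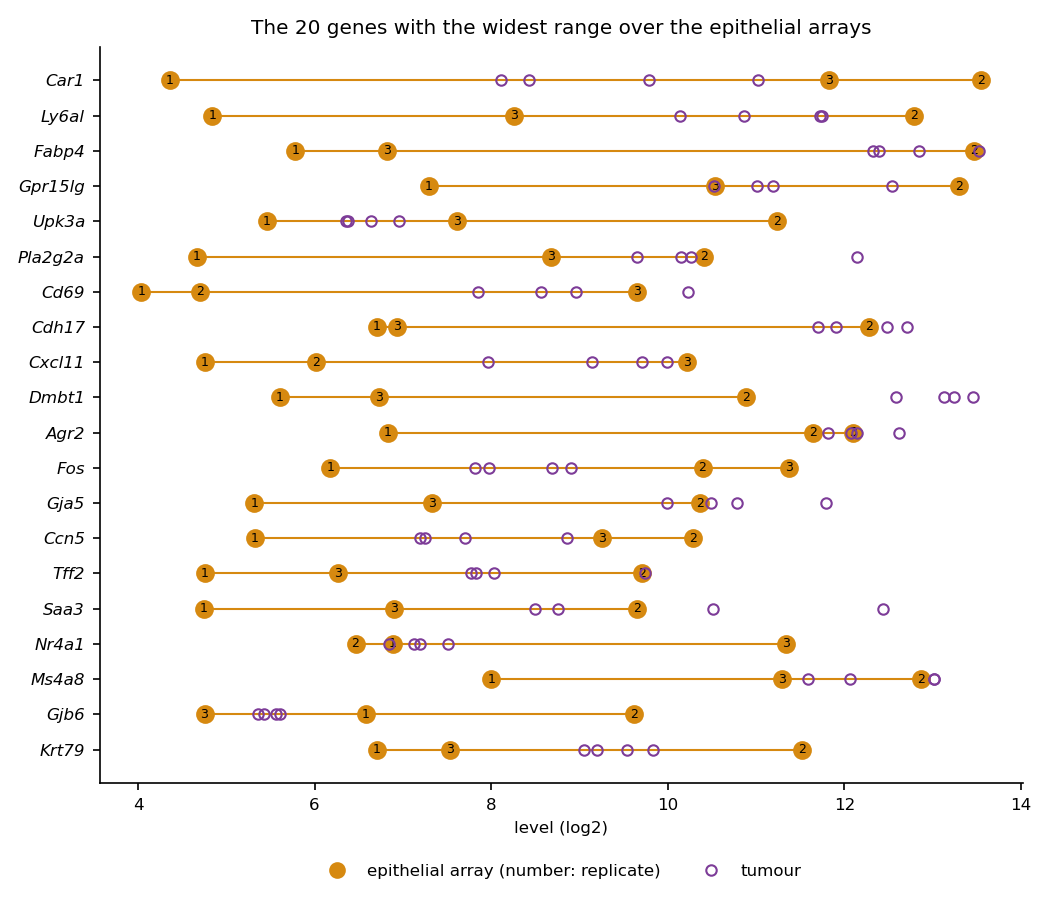
Log2 level in the 3 epithelial arrays (numbered points) and the 4 tumours (open circles) for the 20 genes with the widest range over the epithelial arrays. Epithelial array 1 is the lowest of the 3 for 18 genes and array 2 the highest for 15.

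Ligands of the EGF family were among the genes furthest down in the tumours. Of 17 EGF family ligands and receptors, 6 were lower (35.3%) and 4 higher (23.5%), which is close to the background, so the list as a whole did not stand apart. Beside this and the lists that follow, the mean of the 8 epithelial markers was itself lower in every tumour than in every epithelial array, as given above, and its part was not tested. Areg, the ligand amphiregulin, stood at 6.76, 7.41, 7.22 and 7.32 in the tumours and 10.95, 10.87 and 12.86 in the line (log2 difference -4.38, SE 0.55, adjusted p = 0.000135). Ereg, the ligand epiregulin, stood at 5.16, 5.23, 5.30 and 5.47 and at 8.53, 8.59 and 10.52 (log2 difference -3.92, SE 0.41, adjusted p = 4.39e-05). Hbegf, the heparin-binding ligand, stood at 6.55, 7.21, 7.38 and 7.44 and at 9.26, 9.38 and 10.52 (log2 difference -2.58, SE 0.57, adjusted p = 0.00387). Every tumour lay below every epithelial array for these ligands. The receptor Erbb2 was lower (-1.78, adjusted p = 0.000174), and Egfr differed by -0.33 (adjusted p = 0.342) and was not called.

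Among 25 neutrophil chemokines and epithelial cytokines, 11 were lower (44%) and 5 higher. Cxcl1, a neutrophil attractant, stood at 7.82, 7.03, 6.39 and 8.05 in the tumours and 11.44, 9.27 and 13.60 in the line (log2 difference -4.11, SE 0.92, adjusted p = 0.00409). Csf3, the granulocyte growth factor, stood at 5.60, 5.70, 5.74 and 6.29 and at 9.41, 8.86 and 9.15 (log2 difference -3.31, SE 0.21, adjusted p = 1.41e-06). Il1a, an alarm cytokine of epithelia, stood at 7.94, 8.72, 8.64 and 7.81 and at 11.15, 10.53 and 12.24 (log2 difference -3.03, SE 0.36, adjusted p = 0.000101). The groups did not overlap for any of these. Il24 (-3.06, adjusted p = 4.89e-05) and Cxcl2 (-3.30, adjusted p = 0.0051), a cytokine and a neutrophil chemokine, were lower too. Il1b (3.77, adjusted p = 1.59e-06), which macrophages release, and the cytokines Il18 (4.04, adjusted p = 8.64e-06) and Il6 (1.70, adjusted p = 0.00166) were higher. Tnfaip3, an inhibitor of NF-kappaB signalling that is itself induced by it, was lower (-2.64, adjusted p = 0.00179).

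Kappa-B sites are printed because genes of this list on both sides of 0 hold them. The letters GGG, any 2 bases and TTTCC, searched on both strands so that GGAAA, any 2 bases and CCC count as well, were found in 8 of 19 promoters of the list (42.1%), against 177 of 11734 (1.51%). Again the capitals mark the motif.
Cxcl1, chr14:17479384-17479417, - strand, -84: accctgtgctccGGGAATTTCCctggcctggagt
Cxcl2, chr14:17467308-17467341, - strand, -74: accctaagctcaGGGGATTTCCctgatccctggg
Tnfaip3, chr1:15544025-15544058, - strand, -67: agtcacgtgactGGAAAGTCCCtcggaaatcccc
Il6, chr4:5894622-5894655, - strand, -68: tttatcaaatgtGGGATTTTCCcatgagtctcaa
Cxcl6, chr14:17596484-17596517, - strand, -88: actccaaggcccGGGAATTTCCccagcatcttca
Cxcl1, Cxcl2 and Tnfaip3 were lower in the tumours and Il6 was higher, while Cxcl6, a further neutrophil chemokine, differed by -0.61 (adjusted p = 0.264) and was not called, but had an adjusted p = 0.00637 without epithelial array 2. Genes that hold these letters were thus found in both directions.

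Ptgs2, the inducible cyclooxygenase, stood at 5.84, 6.18, 5.12 and 4.95 in the tumours and 7.75, 9.46 and 11.26 in the line (log2 difference -3.97, SE 0.67, adjusted p = 0.000793), without overlap. Hpgd, the enzyme that degrades prostaglandins, was lower as well (-2.14, adjusted p = 0.00691). It stood at 8.29, 10.30, 7.41 and 7.85 in tumours 1 to 4 and at 10.75, 10.67 and 10.38 in the line, so tumour 2 lay close to the line. Over the prostaglandin pathway 9 of 22 genes were higher and 4 lower. Among 29 immediate early genes and feedback inhibitors of ERK signalling, 11 were lower (37.9%), a share close to the background, and 1 higher (3.45%). The AP-1 subunit Fosl1 (-2.17, adjusted p = 0.00103) and the early response gene Ier3 (-1.93, adjusted p = 0.00093) were lower. Their mean level was 8.22, 8.60, 8.57 and 8.34 in the tumours and 8.84, 9.27 and 10.11 in epithelial arrays 1 to 3, highest in array 3. Fos, a further AP-1 subunit, stood at 6.18, 10.39 and 11.37 in those arrays and differed by -0.97 (adjusted p = 0.49), which was not called. Without epithelial array 1 Fos differed by -2.54 (adjusted p = 0.0295), and its other probe set had a difference of 0.674 (adjusted p = 0.00104), so Fos has no settled direction.

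Targets of p53 were lower in 10 of 16 (62.5%) and higher in none. Gdf15, a stress-induced cytokine, stood at 5.85, 6.17, 6.13 and 5.76 in the tumours and 10.14, 10.12 and 11.02 in the line (log2 difference -4.45, SE 0.22, adjusted p = 2.01e-07). Cdkn1a, the cell cycle inhibitor p21, stood at 9.003, 9.11, 9.24 and 8.97 and at 11.01, 10.60 and 11.01 (log2 difference -1.79, SE 0.17, adjusted p = 1.81e-05). Mdm2, the ligase that degrades p53, stood at 8.74, 9.03, 8.76 and 8.62 and at 10.72, 10.08 and 10.36 (log2 difference -1.60, SE 0.25, adjusted p = 0.000566). No tumour reached the epithelial arrays for any of the 3. The tumours were also below the fibroblastic line for Cdkn1a (-2.31, adjusted p = 6.47e-07) and Mdm2 (-2.23, adjusted p = 1.87e-05). For Gdf15 they differed from that line by 0.38 (adjusted p = 0.135), which was not called.

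In the IGF system 8 of 15 genes were higher (53.3%) and 3 lower. Igf1, the growth factor that liver and fibroblasts secrete, stood at 12.37, 10.10, 10.96 and 12.51 in the tumours and 4.66, 4.92 and 4.77 in the line (log2 difference 6.70, SE 0.74, adjusted p = 5.89e-05). Igfbp7, a binding protein of vessels and stroma, stood at 11.69, 11.45, 11.41 and 12.02 and at 4.59, 4.73 and 4.69 (log2 difference 6.97, SE 0.17, adjusted p = 8.55e-10). The groups were apart for both, and tumour 2 was the lowest for Igf1. The receptor Igf1r was lower (-1.68, adjusted p = 0.000195), and Igfbp3 was higher (5.41, adjusted p = 7.23e-05). In the TGF-beta, activin and BMP system 9 of 31 were higher (29%) and 11 lower (35.5%). Tgfbi, a matrix target of TGF-beta, was higher (6.13, adjusted p = 0.00205), as was the ligand Tgfb1 (1.67, adjusted p = 0.000127). Inhba, a subunit of activin, was higher (5.28, adjusted p = 2.47e-06) and the inhibitor of differentiation Id2 lower (-1.90, adjusted p = 0.0019).

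Of 29 genes of the PDGF, HGF, FGF and VEGF systems, 12 were higher and 5 lower, and 2 were lower without epithelial array 3. Met, the receptor for hepatocyte growth factor, was higher (1.27, adjusted p = 0.00114), while its ligand Hgf differed by 0.35 (adjusted p = 0.324) and was not called. Axl, a receptor of fibroblasts and macrophages for Gas6, was higher (2.54, adjusted p = 0.000121), as was the lymphangiogenic factor Vegfc (2.77, adjusted p = 3.47e-06). Among 30 Notch and Wnt genes, 11 were higher and 6 lower, with the secreted Wnt inhibitor Sfrp4 at 2.99 (adjusted p = 0.00424) and the ligand Wnt4 at -2.94 (adjusted p = 0.000185). Of 17 integrins, 9 were higher and 2 lower. Itga1, a collagen receptor of stromal cells, was higher (3.94, adjusted p = 1.16e-05), and Itga3, a laminin receptor of epithelia, was lower (-1.42, adjusted p = 0.00032).

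Of 29 DNA replication genes, 22 were lower and none higher, with a median of -1.23, and 18 were lower with centred arrays. Mcm4, a subunit of the replicative helicase, stood at 7.80, 8.08, 8.45 and 7.85 in the tumours and 10.10, 9.62 and 10.15 in the line (log2 difference -1.92, SE 0.28, adjusted p = 0.000353). Mcm2, of the same helicase, stood at 8.23, 8.34, 9.13 and 8.54 and at 10.23, 9.92 and 9.71 (log2 difference -1.39, SE 0.23, adjusted p = 0.000648). All tumours lay below all epithelial arrays for both. Mitosis genes were called lower in 7 of 28 (25%), under the background of 33.2%, and in 2 with centred arrays. Their median of -1.14 was nearly as far from 0. The groups did not overlap for 21 of them, against 58.3% of all genes, or 37% with all tumours lower. The count called lower was 2 without tumour 1, 2 or 4 or without epithelial array 1 or 3. It was 12 without fibroblastic array 2, 20 without fibroblastic array 3, and 21 when the fibroblastic arrays were not fitted. The arrays of both lines differed among themselves here, with a mean over the list of 10.02, 8.97 and 9.70 in epithelial arrays 1 to 3 against 8.44, 8.43, 8.81 and 8.39 in the tumours and 8.08, 6.93, 9.62 and 7.73 in fibroblastic arrays 1 to 4. The kinesin Kif23 was lower (-2.36, adjusted p = 0.00308), while the proliferation antigen Mki67 (-1.22, adjusted p = 0.0565), the topoisomerase Top2a (-0.52, adjusted p = 0.466) and the cyclin Ccnb1 (-0.44, adjusted p = 0.555) were not called. The groups did not overlap for Mki67, and on the tumour and epithelial arrays alone it had an adjusted p = 0.0126.

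Among 36 ribosome biogenesis genes, 28 were lower and 1 higher, with a median of -0.91 and 24 lower with centred arrays. Polr1b, a subunit of RNA polymerase I, stood at 7.22, 7.18, 7.34 and 7.11 in the tumours and 9.22, 8.86 and 8.43 in the line (log2 difference -1.63, SE 0.18, adjusted p = 6.45e-05), without overlap. The assembly factors Ppan (-1.71, adjusted p = 5.87e-05) and Nolc1 (-1.59, adjusted p = 0.000789) were lower too. Oxidative phosphorylation genes were lower in 25 of 42, a count that fell to 13 with centred arrays, and their median was -0.43. The cytochrome oxidase subunit Cox5a (-1.12, adjusted p = 0.00122) and the complex I subunit Ndufa5 (-1.04, adjusted p = 0.000191) were among them. Among 29 glycolysis and hypoxia genes, 5 were higher and 7 lower, shares close to the background, with 3 higher without epithelial array 3, and Ldha differed by -0.15 (adjusted p = 0.46) and was not called.

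Cholesterol synthesis and uptake was lower in 14 of 19 with none higher and a median of -1.41, and 12 were lower with centred arrays. Sqle, the squalene epoxidase, stood at 8.07, 8.02, 8.49 and 8.11 in the tumours and 10.37, 10.91 and 11.10 in the line (log2 difference -2.62, SE 0.40, adjusted p = 0.000446). Lss, which closes the sterol ring, stood at 7.55, 7.48, 7.49 and 7.68 and at 9.34, 9.64 and 9.60 (log2 difference -1.98, SE 0.30, adjusted p = 0.000454). Tumours and line did not overlap for Sqle or Lss. Among 19 fatty acid synthesis genes, 9 were lower and 3 higher. Fasn, the fatty acid synthase, was lower (-1.94, adjusted p = 4.5e-05), as was Acly, which supplies its acetyl units (-1.85, adjusted p = 6.75e-05). Scd, a desaturase that liver expresses strongly, stood at 10.61, 4.83, 8.29 and 10.55 in the tumours and 4.19, 4.47 and 4.25 in the line (4.26, adjusted p = 0.0107), and tumour 2 was the lowest of the tumours. With tumour 2 as the only tumour, 9 of the 19 were lower and 0 higher. Genes of amino acid stress, transport and tRNA charging were lower in 13 of 35 (37.1%), close to the background, and higher in 2. Without epithelial array 1 they were lower in 6. The leucine transporter Slc7a5 was lower (-2.06, adjusted p = 0.00884).

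Among 25 chaperones and secretory genes of the endoplasmic reticulum, 14 were higher and 1 lower. Calr, a calcium-binding chaperone of this compartment, stood at 11.75, 11.41, 11.43 and 11.47 in the tumours and 10.12, 9.95 and 9.47 in the line (log2 difference 1.67, SE 0.17, adjusted p = 3.29e-05). No tumour overlapped the line for Calr. Serpinh1, the chaperone of collagen, which was counted with the proteases and inhibitors, stood at 10.96, 11.15, 11.09 and 11.27 and at 4.88, 4.32 and 4.50 (log2 difference 6.55, SE 0.25, adjusted p = 2.06e-08), and at 11.78 ± 0.50 (SD, n = 4) in the fibroblastic line. Among 31 lysosome genes, 16 were higher and 2 lower, with the acid phosphatase Acp5 of macrophages and osteoclasts at 2.60 (adjusted p = 0.000871) and the protease Lgmn at 2.0 (adjusted p = 2.98e-05). Among 19 heat shock genes of the cytosol and mitochondria, 4 were higher and 5 lower, which turned to 6 and 2 with centred arrays, so the list has no settled direction. The small heat shock protein Hspb8 was higher (3.08, adjusted p = 4.39e-05). Among 32 detoxifying enzymes linked to NRF2, 9 were higher and 4 lower. The plasma peroxidase Gpx3 (5.24, adjusted p = 3.07e-05) and the transferase Gstm1 (4.09, adjusted p = 0.0026) were higher. Gstm1 stood at 10.65, 6.70, 8.59 and 11.12 in tumours 1 to 4, lowest in tumour 2 and highest in tumours 1 and 4 as the hepatocyte lists were, and Gpx3 stood at 10.11 ± 1.19 (SD, n = 4) in the fibroblastic line, from which the tumours differed by 0.94 (adjusted p = 0.113). In the same list the aldehyde dehydrogenase Aldh3a1 (-2.54, adjusted p = 0.00199) and the export pump Abcc1 (-1.80, adjusted p = 0.000151) were lower.

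Among 32 actin regulators and focal adhesion genes, 5 were higher (15.6%) and 11 lower (34.4%), shares close to the background. The leukocyte proteins Lcp1 (5.55, adjusted p = 6.08e-08) and Coro1a (4.25, adjusted p = 2.04e-07) were higher. Wasf2, which drives actin branching at the leading edge, stood at 5.20, 6.07, 5.77 and 4.70 in the tumours and 9.30, 9.62 and 8.34 in the line (log2 difference -3.65, SE 0.36, adjusted p = 2.68e-05). The groups did not overlap, and the fibroblastic line was also above the tumours, by a tumour minus fibroblastic difference of -3.52 (adjusted p = 7.64e-06).

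The tumours lay below both lines for several of the genes furthest down. Of the 30 genes most reduced against the epithelial line, 9 were also called below the fibroblastic line and 11 above it, in a comparison that called 60.9% of all genes. Those 30 genes were chosen by the same tumour values, and background shares by direction were not computed, so the counts are descriptive. Bdnf, the brain-derived neurotrophic factor, stood at 5.24, 5.76, 5.56 and 5.36 in the tumours and 8.66, 8.39 and 7.83 in the epithelial line (log2 difference -2.81, SE 0.20, adjusted p = 2.91e-06), with the fibroblastic line at 9.42 ± 0.16 (SD, n = 4). Map2, a microtubule protein best known from neurons, stood at 4.92, 5.18, 4.85 and 4.90 and at 8.22, 7.69 and 7.37 (log2 difference -2.79, SE 0.22, adjusted p = 5.42e-06), with the fibroblastic line at 8.86 ± 0.31 (SD, n = 4). Qrich1, a regulator of transcription under stress of the endoplasmic reticulum, stood at 5.15, 5.36, 5.17 and 5.12 and at 8.93, 8.83 and 8.24 (log2 difference -3.47, SE 0.18, adjusted p = 2.47e-07), with the fibroblastic line at 8.20 ± 0.21 (SD, n = 4). All tumours were below all arrays of either line for these 3 genes. Psca (-3.13, adjusted p = 9.77e-05), a surface antigen of epithelia, and the synuclein Sncg (-3.44, adjusted p = 0.000595) were below the epithelial line and low in the fibroblastic line, at 5.75 ± 0.47 (SD, n = 4) and 5.15 ± 0.43 (SD, n = 4). Hoxc8, a factor of axial patterning, was below the epithelial line (-2.69, adjusted p = 2.95e-05) and differed by 0.24 from the fibroblastic line (adjusted p = 0.423).

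Of the 30 genes most increased against the epithelial line, 21 were also called above the fibroblastic line and 6 below it. That comparison called 60.9% of all genes in either direction. The 30 genes were again chosen by the tumour values, so these counts are descriptive. Ifitm1, an interferon-inducible membrane protein, stood at 11.34, 11.11, 10.84 and 11.55 in the tumours and 3.88, 3.69 and 3.96 in the line (log2 difference 7.37, SE 0.19, adjusted p = 1.72e-09), without overlap. Srgn, the proteoglycan of secretory granules in blood cells, was higher by 7.08 (adjusted p = 1.47e-08), and Cd48, a surface molecule of leukocytes, by 7.17 (adjusted p = 8.55e-10). The fibroblastic line held both as well, with Srgn at 9.50 ± 0.53 (SD, n = 4) and Cd48 at 10.47 ± 0.17 (SD, n = 4), and the tumours were above it by 1.78 (adjusted p = 9.17e-05) and 0.40 (adjusted p = 0.0468). Apoe, an apolipoprotein of liver and macrophages, was higher by 7.03 (adjusted p = 2.3e-06), and stood at 13.80, 13.58, 13.09 and 13.72 in the tumours. The other of its 2 probe sets had a difference of -0.050 (adjusted p = 0.802). Fn1, the matrix protein fibronectin, was higher by 7.88 (adjusted p = 7.59e-10) and differed by -1.39 from the fibroblastic line (adjusted p = 4.13e-05).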

How the data were processed

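Expression was measured on single-colour Affymetrix rat arrays, from Trizol-extracted total RNA, per the labels' protocols. The authors deposited 1 log2 expression value per probe set and array, normalized by RMA per the submitters' processing notes. RMA models background, sets the probe values of all arrays to 1 distribution and then summarises them by probe set, which compresses low values. The summarised values still differed in spread between the groups. The values were used as deposited.

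Of 31099 probe sets, 57 controls were left out, and 20826 named 1 gene through the platform annotation, 436 several and 9780 none; only the first kind was used. Each gene took its probe set of highest mean level across the 13 arrays, which gave 14217 genes. Symbols were updated through RefSeq tables of GRCr8. Tumours and epithelial line were compared with limma 3.58.1 in R 4.3.3 on 11 arrays, the fibroblastic line adding to the estimate of the spread, with Benjamini-Hochberg adjustment over all genes and a call at adjusted p under 0.05. Arrays have no counting depth. With 4 arrays against 3, the smallest one-sided p of an exact permutation test of a single gene, doubled, is 0.0571, and no such test was used. On simulated data of 14217 genes, the fit recovered 64 of 100 genes shifted by 1 on the log2 scale and 95 of 100 shifted by 2. It made 11 false calls. All other genes were left unchanged there, and each gene had the same normal spread in every group. In the measured data 52.1% of genes were called and spreads differed between groups, so these counts do not carry over.

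The genes, the 46 gene lists and the alternatives were chosen with earlier results of these data known, and they support nothing by being chosen. Named genes came from the 30 most increased and 30 most reduced genes, the lists and the 20 genes with the widest range over the tumours or over the epithelial arrays. Among called list members, genes whose call held without any 1 array were preferred, so their stability is a result of the choice. A list was described by its counts and its median, with no test. Replicate numbers of tumours and epithelial arrays did not pair them: the correlations of same-numbered deviations were -0.005, 0.115 and -0.148. Promoter letters were searched in RefSeq promoters with Python 3.11.15. Of 7 motifs searched, each in 1 list, the report prints 3. The other 4 were found in 0 of 15 promoters for the SRE (cholesterol synthesis and uptake), 4 of 21 for the CRE (immediate early and ERK feedback genes), 20 of 25 for the CCAAT box (mitosis) and 1 of 15 for the CArG box (contractile and myofibroblast genes), against 0.980%, 2.62%, 35.1% and 1.22% of all promoters searched. Statmod 1.5.0 served the replicate block, and the tables and plots used matplotlib 3.10.9, numpy 2.4.6 and pandas 2.3.3. The 2 co-culture arrays entered only the choice of probe sets and the fit of all 13 arrays.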

Additional observations from a re-analysis of the deposited data

Results flagged for a closer look

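A tumour was set apart where its gap to the nearest other tumour took up more of the range of the 4 than Dixon's 95% critical value allows, a limit that chance passes in about 1 of 20 groups. Of 160 genes named in the text, 9 passed it, and of 46 list means 4 did. Tumour 2 was low for albumin Alb (7.50, against 13.94 to 14.51 in the others) and for the fibrinogen chains Fga (4.39, against 12.21 to 13.72) and Fgg (4.34, against 12.76 to 14.08). It was also low for the basement membrane collagen Col4a1, at 9.17 against 9.94 to 10.003. Tumour 3 was low for the neutrophil chemokine Cxcl2 (6.25, against 7.39 to 7.54) and for the growth factor Tgfb1 (7.89, against 8.015 to 8.024). Tumour 4 was high for the class II chain RT1-Db1 (12.20, against 11.62 to 11.70), the granule proteoglycan Srgn (11.57, against 11.17 to 11.21) and the synuclein Sncg (6.74, against 6.01 to 6.13).

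Among the list means, B and plasma cells were low in tumour 2, at 5.75 against 5.96 to 5.98. The means for mitosis (8.81, against 8.39 to 8.44) and for amino acid stress, transport and tRNA charging (9.33, against 8.99 to 9.04) were high in tumour 3. The mean for oxidative phosphorylation was high in tumour 4, at 11.07 against 10.94 to 10.95.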

How the results depend on the processing

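The counts of 2685 genes higher and 4722 lower moved by over 1.5 times under some settings. Leaving out the lowest expressed genes gave 1765 higher. An adjusted p under 0.01 gave 1633 higher, and a 2-fold limit 1459 higher and 2006 lower. With tumours 1 and 4 left out the counts were 1652 and 2897, and with tumour 2 as the only tumour 917 and 1041, from fewer arrays. Leaving out 1 array at a time gave 2084 to 2748 higher and 3907 to 4821 lower. With the replicate number as a block, where the numbers do not pair the arrays, 2333 genes were higher and 4305 lower.

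Of the 142 named genes called, none lost its call without any 1 array or with the block, a stability that their choice built in, while 10 lost it with tumours 1 and 4 left out. With tumour 2 as the only tumour, 111 kept the call, 30 lost it with the same sign and 1, Cyp3a2, turned to -0.13. Among genes not called, Car1 turned to 1.11 with tumour 2 as the only tumour, Egfr to 0.035 and Hgf to -0.016 with a further quantile normalization, and Ldha to 0.048 with centred arrays. Without 1 array at a time Car1 ran from -3.35 to 1.24, Fos from -2.54 to 0.059 and Tap1 from -0.082 to 0.263. The cause of these changes was not tested. Of 2450 called genes with several probe sets, 736 had a probe set of opposite sign. The number of arrays limits what small differences could be called, and low signals are compressed on this scale.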
